A study of Homo sapiens with 36 samples.

Results

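The MYC network is the set of transcription factors that compete for the partner protein MAX, and its 10 genes MYC, MYCN, MYCL, MAX, MXI1, MXD1, MXD3, MXD4, MNT and MGA were followed in WiT49 cells treated with actinomycin D. The genes were chosen by name, not by their values, by matching each Ensembl identifier without its version to the symbols of GENCODE release 29. All 10 were listed, among 58219 genes in the RNA tables and 43582 genes in the tables of ribosome footprints. WiT49 is a single established line from an anaplastic Wilms tumor, a kidney tumor of childhood, and actinomycin D (actD) is a DNA-binding drug used against it that blocks transcription.

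Every group held 3 libraries, and every cell was WiT49 with no other genetic change named. Treated groups received actD at 2 nM and control groups its solvent, DMSO, and cells were taken after 6 h, 72 h or 2 weeks. The longest schedule had 2 cycles of 7 days, with 3 days of drug or solvent and 4 days of plain medium in each. Total RNA and ribosome footprints, the RNA fragments shielded by translating ribosomes, were sequenced at each time, giving 36 libraries in 12 groups. Titles and library names of the 2-week RNA libraries give opposite treatments, so in what follows "named actd" and "named dmso" refer to the library names, and every sign given for them turns round under the titles. The labels do not say that replicates came from separate cultures, so p-values measure only the spread between these libraries.

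RNA libraries held 40221994 to 69240041 counts and footprint libraries 152556 to 1281039. Most footprint counts fell outside protein-coding genes, so these totals overstate the depth over coding genes. The protein-coding share of footprint counts ranged between 2.12% and 19.75% in the 6 h libraries. For 72 h the range was 17.59% to 40.36%, and for 2 weeks 6.245% to 9.393%. Among RNA libraries the lowest share was 52.89% and the highest 76.3%. Levels are CPM, the share of a scaled library total in parts per 1e+06, with scaling by the trimmed mean of M-values (TMM). They are compared between genes only per kb of exon and between libraries only within a table. The exon length merges all annotated exons of a gene, from 2602 bases for MYCN to 17651 for MGA. The order of genes per kb therefore depends on the annotation. Of the nephrogenic markers, IGF2 lay at 1020 to 2359 CPM, LIN28B at 124 to 429.8 CPM and WT1 at 3.77 to 37.6 CPM of RNA. SIX2, PAX2, PAX8, EYA1, SALL1 and CITED1 stayed under 1 CPM, and EYA1, PAX8 and SALL1 were at 0 in some libraries. The 6 blood and endothelial markers summed to at most 0.42 CPM in any RNA library, with HBB at 0 in all 18. Epithelial and stromal markers had sums of 1015 to 6933 CPM and 1352 to 5110 CPM. KRT8 and KRT18 made up most of the epithelial sum, and COL1A1 and COL3A1 most of the stromal sum. KRT19 lay at 8.21 to 59.2 CPM, EPCAM at 5.98 to 21.7 and CDH1 at 0.66 to 3.71. PDGFRB lay at 37.9 to 81.5 CPM, DES at 6.27 to 10.7 and ACTA2 at 0 to 1.36, and COL1A2 was at 0 throughout. In bulk libraries such as these, fewer cells of a type and less RNA per cell cannot be told apart. One footprint library, 6 h DMSO replicate 1, stood apart, with a mean correlation of 0.333 with its own group, and the RNA library 72 h DMSO replicate 3 had the lowest value in RNA, 0.962. Mitochondrial ribosomal RNA took 24.6% to 32.3% of the counts in the 72 h actD RNA libraries and 15.5% to 22.5% in the DMSO libraries, and its part in the 72 h results was not tested.

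MYC, MYCN and MYCL are transcription factors that drive growth, ribosome production and the cell cycle, and each binds DNA as a pair with MAX. MXI1, MXD1, MXD3, MXD4 and MNT also pair with MAX, bind the same DNA element and recruit the SIN3 corepressor, so they oppose the MYC proteins at shared target genes. MGA pairs with MAX as well and belongs to the Polycomb complex PRC1.6. MYCN is the family member best known in embryonal tumors, Wilms tumor included.

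The element bound by these pairs is the E-box CACGTG, a palindrome, so a match counts for both strands. It was searched for in the 250 bases before each start that RefSeq annotates on GRCh38.p14. Windows were at hand for 9 of the 10 genes (14 windows, none for MYC). MXD4 and MNT, both antagonists, were the members whose window held it, and 6.34% of all 35116 windows did. The stretches below show the E-box in capitals, at chr4:2262330-2262359 on the minus strand for MXD4, 238 bases before the start, and at chr17:2401236-2401265 on the minus strand for MNT, 193 bases before the start.
MXD4: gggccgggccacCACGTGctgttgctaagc
MNT: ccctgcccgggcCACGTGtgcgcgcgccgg

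MYCN and MGA were the members with the highest RNA level, and their windows shared another element, an E2F-type site searched for as TTTGGCGC or TTTCGCGC on both strands. The motif was chosen after the sequences were seen, so its presence in these members was fixed beforehand and the share over all windows is no test of it. It occurred in 0.968% of the 35116 windows and, among the members, in 1 window each of MYCN and MGA. The other MGA windows did not hold it. The MYCN window, chr2:15940300-15940549 on the plus strand, holds a pair of overlapping sites in capitals, the first starting 176 bases before the start, and overlaps an exon of the antisense gene MYCNOS. The MGA stretch, chr15:41660671-41660700 on the plus strand, holds 1 site in capitals, 65 bases before a start. A match describes letters only and shows no binding.
MYCN: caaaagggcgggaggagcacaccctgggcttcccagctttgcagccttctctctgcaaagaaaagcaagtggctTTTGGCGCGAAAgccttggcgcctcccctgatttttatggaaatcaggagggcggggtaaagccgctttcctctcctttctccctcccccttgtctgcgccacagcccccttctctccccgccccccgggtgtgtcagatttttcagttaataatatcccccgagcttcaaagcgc
MGA: gcagggccgccTTTGGCGCgcccctgtggt

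MYCN was the dominant MYC gene of these cells at every time. In the control libraries its RNA level was 54.5 ± 6.37 CPM per kb at 6 h (SD, n = 3), 28.2 ± 5.76 CPM per kb at 72 h and 39.2 ± 1.72 CPM per kb in the 2-week libraries named dmso. MYCN made up 97.7% ± 0.523 of the summed RNA of MYC, MYCN and MYCL per kb at 6 h, 96.6% ± 1.80 at 72 h and 97.1% ± 0.414 at 2 weeks. MYCL followed at 0.732 ± 0.0956, 0.856 ± 0.274 and 1.14 ± 0.247 CPM per kb. MYC was last of the 10 genes in each table, at 0.555 ± 0.209 CPM per kb at 6 h, 0.0755 ± 0.0366 at 72 h and 0.0305 ± 0.0286 at 2 weeks. At 6 h its libraries overlapped those of MXI1, next above it, so this last place is not beyond the spread there.

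MGA took the second place in all 3 control groups, at 12.3 ± 1.72, 12.6 ± 1.58 and 13.0 ± 0.893 CPM per kb, and overlapped neither neighbour in the order. MAX, the shared partner, came next at 6 h with 6.77 ± 0.561 CPM per kb and at 72 h with 4.41 ± 1.61, and came after MXD4 at 2 weeks with 5.25 ± 0.787. Per kb, MAX RNA was thus well under MYCN RNA. Among the antagonists the order changed between tables. At 6 h MXD3 led with 5.42 ± 0.833 CPM per kb, ahead of MXD1 with 3.44 ± 0.289, and neither overlapped its neighbours. At 72 h the order from MAX down to MYCL (MAX, MXD1, MXI1, MXD3, MXD4, MNT, MYCL) held no neighbours that were apart, so neighbours cannot be ranked there. Some genes further along the order were apart. The lowest MAX library, at 2.59 CPM per kb, was above the highest of MXD4 (1.62), MNT (1.45) and MYCL (1.15). The lowest MXD1 library, at 1.41, was above the highest of MYCL. In the 2-week libraries named dmso MXD4 led with 6.98 ± 0.626 CPM per kb, above MAX. It then made up 49.5% ± 1.46 of the summed MXI1, MXD1, MXD3 and MXD4 RNA per kb, against 16.4% ± 3.83 at 6 h and 18.7% ± 1.71 at 72 h in the respective controls. These shares come from separately scaled tables, and their difference between times was not tested.

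**Figure D1:**
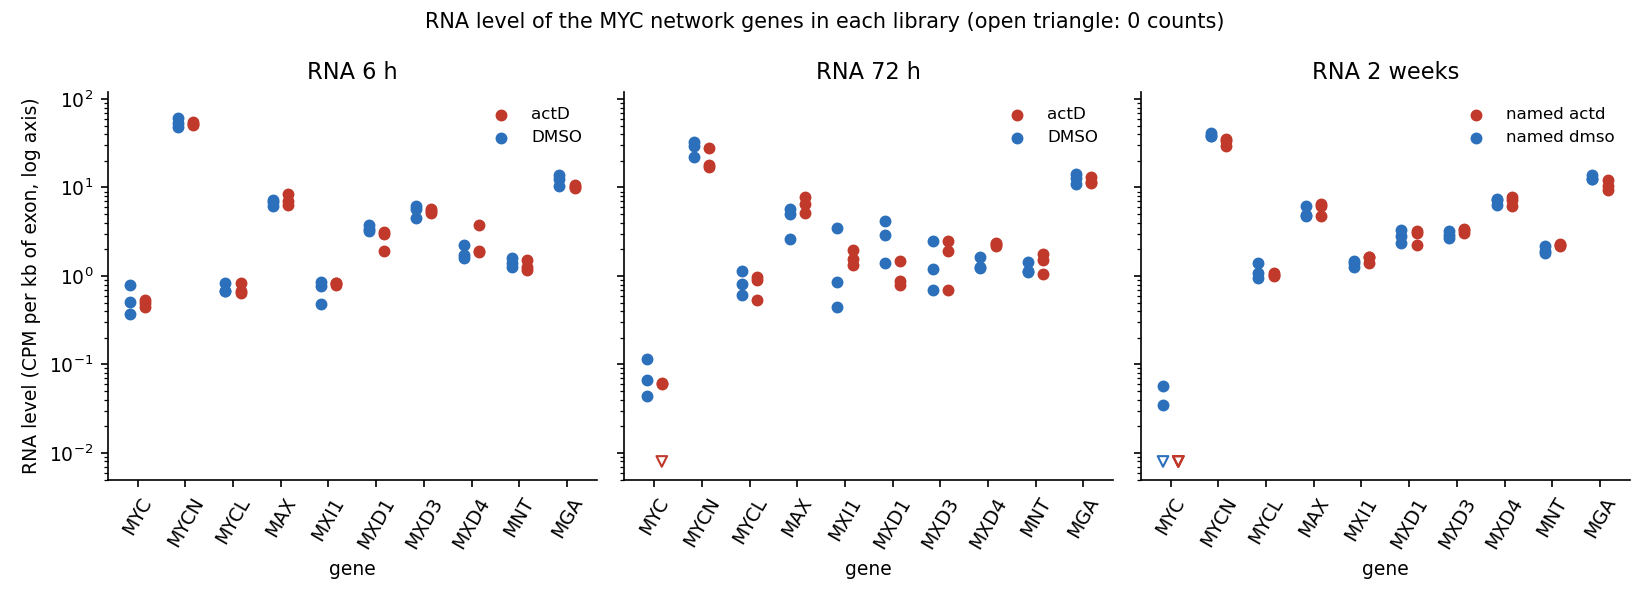
RNA level of each MYC network gene in every library, in CPM per kb of exon on a log axis, with 1 panel per time point, 1 point per library and open triangles for libraries with 0 counts. MYCN lies highest in all 3 panels and MGA is second in the control libraries, while MYC lies lowest at 72 h and 2 weeks and overlaps MXI1 and MYCL at 6 h.

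On GRCh38 MYCN lies at chr2:15940564-15947007, MGA at chr15:41621224-41773081, MAX at chr14:65006174-65102695, MXD1 at chr2:69897688-69942945 and MXD4 at chr4:2247432-2262294. Several of the 10 genes share exon bases with others, and whether the counting used the strand is not stated. MXD3 shares 926 bases with RAB24 on its own strand and 1158 with PRELID1 on the other. MNT shares 1065 bases with the antisense gene AC006435.1 and MGA 510 with AC073657.1. MXD1 shares 237 bases with SNRNP27, and MYCN 98 with MYCNOS. With antisense genes MYCL shares 226 bases (AL033527.2), MXI1 205 (AL360182.2) and MAX 184 (AL139022.1). MXD4 shares 80 bases with MIR4800 on its own strand. MYCL has the processed pseudogenes MYCLP1 and MYCLP2 on chromosome X. Levels of these genes are therefore uncertain by reads that belong to a partner.

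After 6 h of actD no member passed the test for a difference. The edgeR quasi-likelihood test with Benjamini-Hochberg adjustment called 0 of the 10 members at an adjusted p under 0.05, beside 0 of all 22669 genes tested (0.0%), and 0 members also at an unadjusted p under 0.05, beside 8.21% of all genes. MYCN RNA was 159, 140.1 and 126 CPM with DMSO and 136, 145 and 133 CPM with actD, so the groups overlapped (log2 fold change -0.04, SE 0.12). MYC, an immediate-early gene in many cells, was 1.51, 1.13 and 2.35 CPM with DMSO and 1.62, 1.49 and 1.35 CPM with actD. Its fitted difference was -0.16 (SE 0.30) on the log2 scale.

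None of the MAX-binding antagonists passed the test at 6 h. MXD1, a repressor linked to differentiation, was 21.3, 23.9 and 20.3 CPM with DMSO and 20.0, 18.7 and 12.3 CPM with actD. It was the only one of the 10 members whose groups did not overlap, beside 15.8% of all genes, and its log2 fold change of -0.36 (SE 0.19) had an adjusted p of 0.67 by edgeR. MXD4 was 12.3, 11.3 and 15.7 CPM with DMSO and 13.2, 13.7 and 26.3 CPM with actD. Its difference of 0.44 (SE 0.28) on the log2 scale was 0.03 without actD replicate 3, the highest library. MGA was 184, 223 and 244 CPM with DMSO and 188, 178 and 173 CPM with actD, and overlapped (log2 fold change -0.27, SE 0.13). Differences of MYCL, MAX, MXI1, MXD3 and MNT ran on the log2 scale from -0.12 for MNT to 0.22 for MXI1.

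At 72 h the antagonists MXD1 and MXD4 had differences of opposite sign, MXD1 lower and MXD4 higher with actD, and neither passed the test. The median standard error over all genes tested was 0.33 on the log2 scale, against 0.22 at 6 h. Called members numbered 0 of 10 by edgeR, beside 1 of 21195 genes (0.00472%). Unadjusted, 2 of 10 members, MXD1 and MXD4, had a p under 0.05, beside 13.1% of all genes. MXD1 RNA was 26.6, 18.3 and 8.95 CPM with DMSO and 5.06, 5.60 and 9.27 CPM with actD. All actD libraries except replicate 3 were under the lowest DMSO library, replicate 3. The log2 fold change was -1.43 (SE 0.43), with an adjusted p of 0.278 by edgeR. DESeq2 gave -1.44 with an adjusted p of 0.0459, and edgeR with 1 fit over all 18 RNA libraries gave -1.40 with an adjusted p of 0.019. These fits called 2.85% and 4.89% of all genes, so the call for MXD1 depends on the tool and on the libraries fitted together. The 1 fit also differed in scaling and in the genes kept (24803 against 21195), and which difference moved the call was not tested. Leaving out each library in turn gave -1.76 (without DMSO replicate 3, adjusted p = 0.125 by edgeR) to -1.06 (without DMSO replicate 1, adjusted p = 0.512).

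MXD4 was 8.57, 11.5 and 8.91 CPM with DMSO and 16.5, 15.3 and 16.1 CPM with actD. All 3 actD libraries lay above all 3 DMSO libraries, which held for 1 of the 10 members, beside 10.5% of all genes. Non-overlap in either direction held for 20.9% of all genes. The log2 fold change was 0.73 (SE 0.21), with an adjusted p of 0.276 by edgeR and of 0.0666 by DESeq2. It lay between 0.63 and 0.86 when each library was left out in turn. The share of MXD4 in the summed MXD RNA per kb was 34.3% ± 3.24 with actD and 18.7% ± 1.71 with DMSO. Its libraries did not overlap (exact permutation p = 0.1, the smallest possible with 3 against 3), and it was among several shares and ratios computed. The summed antagonists per kb, MNT included, were 8.06 ± 0.879 with actD and 8.50 ± 0.723 with DMSO, so the sum differed by less than its spread. The share of MXD1 was 16.2% ± 7.08 with actD and 38.8% ± 19.6 with DMSO, and its libraries overlapped. At 6 h the MXD1 share did not overlap, at 23.6% ± 6.66 with actD and 30.1% ± 2.44 with DMSO. In the 2-week libraries the summed MYC, MYCN and MYCL RNA per kb was also apart. It was 33.6 ± 3.03 in those named actd and 40.4 ± 1.95 in those named dmso. The summed antagonists over that sum were apart as well, at 0.508 ± 0.0647 against 0.398 ± 0.0160.

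**Figure D2:**
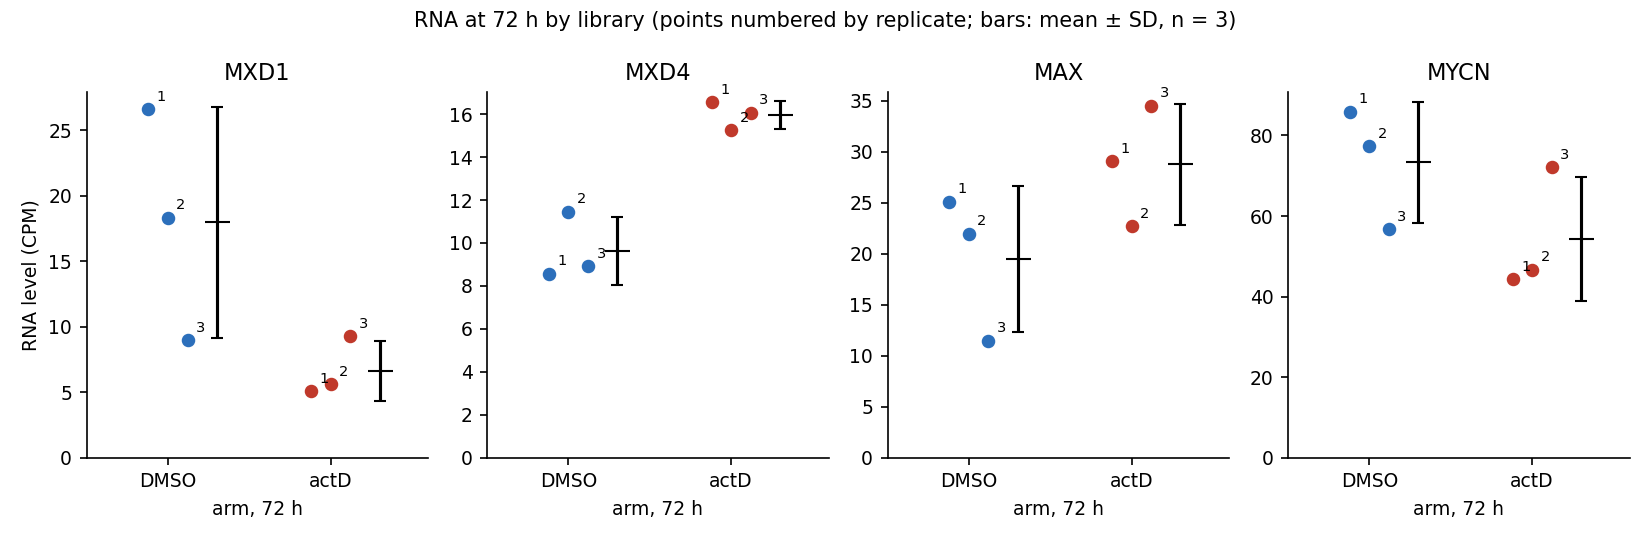
RNA level at 72 h of MXD1, MXD4, MAX and MYCN in each library, in CPM, with points numbered by replicate and bars for the mean ± SD of 3 libraries. MXD4 is apart between groups at 8.57 to 11.5 against 15.3 to 16.5 CPM, whereas DMSO and actD libraries overlap for MXD1, MAX and MYCN.

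MYCN and MAX had differences of opposite sign at 72 h, and neither passed the test. MYCN was 85.9, 77.3 and 56.8 CPM with DMSO and 44.3, 46.7 and 72.0 CPM with actD, where replicate 3 of each group crossed into the other. Its log2 fold change was -0.43 (SE 0.26, edgeR adjusted p = 0.52). MAX was 25.1, 22 and 11.5 CPM with DMSO and 29.1, 22.7 and 34.5 CPM with actD, a log2 difference of 0.56 (SE 0.32), or 0.28 without DMSO replicate 3. MAX per unit of summed MYC, MYCN and MYCL RNA, both per kb, was 0.304 ± 0.0533 with actD and 0.148 ± 0.0307 with DMSO, with no overlap. This ratio was among several shares and ratios computed, and its exact permutation p was 0.1, the smallest possible with 3 against 3. At 6 h and in the 2-week libraries it overlapped. Even with actD at 72 h, MAX RNA remained below the summed MYC, MYCN and MYCL RNA in every library.

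For the other members at 72 h, levels were low or the groups overlapped. MYC had 5, 9 and 24 counts with DMSO and 0, 10 and 10 with actD, and 0 counts allows up to 3 counts, or 0.0589 CPM, in that actD library. MXI1 was 2.03, 3.98 and 16.2 CPM with DMSO and 9.08, 6.16 and 7.24 CPM with actD. DMSO replicate 3 was the highest of the 6, and the log2 difference of 0.01 (SE 0.68) became 1.31 (SE 0.36, adjusted p = 0.192 by edgeR) without it. MXD3 was 6.22, 13.0 and 3.58 CPM with DMSO and 9.75, 12.6 and 3.57 CPM with actD, nearly the same range. At this time MYCL (log2 difference -0.10, SE 0.35), MNT (0.23, SE 0.26) and MGA (-0.08, SE 0.19) differed by less than their standard errors.

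Whether the effect differed between 72 h and 6 h was tested as the interaction of treatment and time, with 0 of 10 members called by edgeR beside 4 of 24251 genes (0.0165%). MXD1 had the interaction furthest from 0 among the members, -1.08 (SE 0.50, adjusted p = 0.625 by edgeR), and MXD4 had 0.26 (SE 0.38). A difference between the times was thus not shown for any member.

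In the 2-week RNA libraries 9 members passed the filter on low counts. MYC did not, with 0 counts in all 3 libraries named actd and 6, 9 and 0 in those named dmso. By edgeR 0 of the 9 were called, beside 0 of 21137 genes (0.0%), and 1 of 9 had an unadjusted p under 0.05, beside 8.93%. That gene was MYCN, with 91.1, 87.1 and 75.9 CPM in the libraries named actd and 98.4, 100.4 and 107.005 CPM in those named dmso, a log2 difference of -0.27 (SE 0.11, edgeR adjusted p = 0.548).

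Non-overlap was seen for 3 of the 9, MYCN, MGA and MNT, beside 15.7% of all genes. MGA was 216, 167 and 185 CPM in libraries named actd and 247, 221 and 219 CPM in those named dmso, a log2 difference of -0.27 (SE 0.13). MNT, a broadly expressed antagonist, was 19.1, 20.3 and 19.3 CPM against 16.8, 15.8 and 18.8 CPM, a log2 difference of 0.19 (SE 0.11). MXD1 was 20.2, 14.1 and 19.6 CPM against 15.2, 18 and 20.7 CPM, and MXD4 43.7, 55.5 and 50.5 CPM against 44.2, 51.6 and 52.0 CPM. The groups therefore overlapped for both of these antagonists. MYCL, MAX, MXI1 and MXD3 lay between -0.13 and 0.16 on the log2 scale. Mitochondrial ribosomal RNA was 25.8% to 31.2% of counts in the libraries named actd and 19.6% to 22.9% in those named dmso, and its part in these values was not tested.

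**Figure D3:**
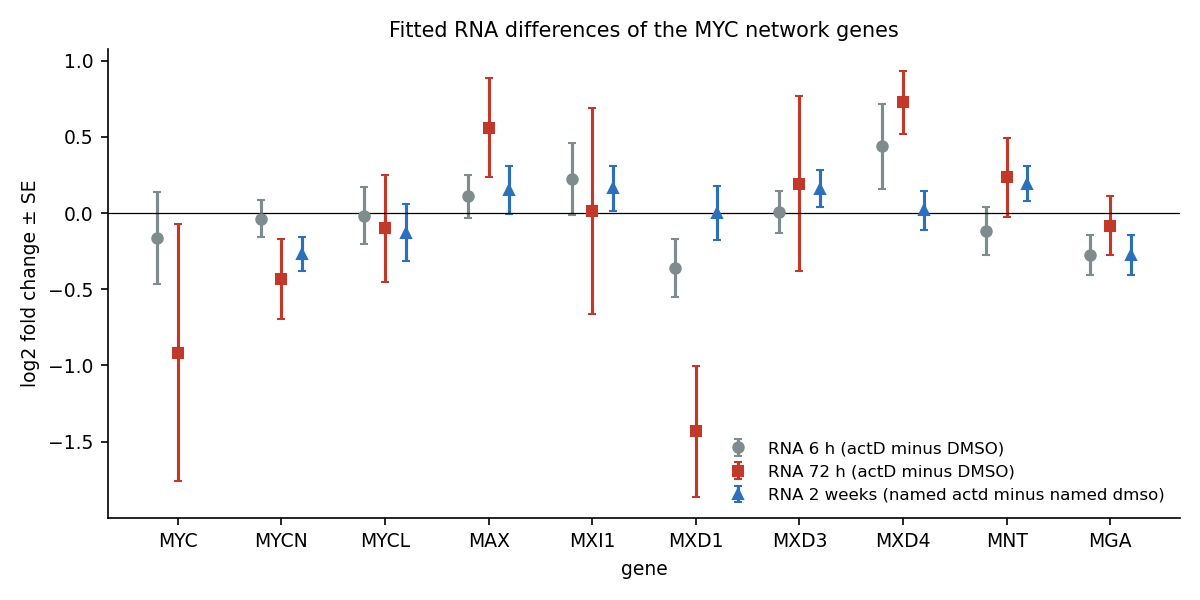
Fitted log2 RNA difference (± SE) of each member at 6 h and 72 h (actD minus DMSO) and at 2 weeks (named actd minus named dmso). MXD1 at 72 h, at -1.43, lies furthest below 0 and MXD4 at 72 h, at 0.73, furthest above it; MYC has no 2-week value because it did not pass the filter.

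In ribosome footprints only MYCN and MGA passed the filter on low counts at each time. Over all 18 footprint libraries MYCN had 565 counts and MGA 502, whereas MXD4 had 51, MXD3 44, MNT 34, MXD1 26, MAX 15, MYCL 5, MYC 2 and MXI1 0. At 72 h MXD1 had 0 counts in each DMSO library and 3, 0 and 11 with actD. MXD4 then had 3, 2 and 2 counts with DMSO and 6, 2 and 4 with actD, on average 12.8 and 6.39 CPM. These few footprints lay the other way from the 72 h RNA differences of both genes, and the groups overlapped. With no filter 7 members could be tested at 6 h and 8 at 72 h and 2 weeks, and 0 were called by edgeR. The floor of 3 counts lay between 2.7 and 37.3 CPM in these libraries, and such floors and the intervals below cover counting error only.

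MYCN had more footprints relative to its RNA than most genes. In the pooled DMSO libraries its footprints per RNA, each as a share of its scaled library total, were 0.268 at 6 h (95% exact Poisson interval 0.213 to 0.333) and 1.48 at 72 h (1.18 to 1.83). The median of protein-coding genes at 5 CPM of RNA or more was 0.048 at 6 h and 0.197 at 72 h, and 91.5% of 10830 genes and 94.3% of 10338 genes lay below MYCN. MYC was higher at 6 h, at 0.563, but on 2 footprints (0.0682 to 2.03). At 72 h MXD3 had 1.04 (0.382 to 2.26), MXD4 0.89 (0.358 to 1.83) and MNT 0.797 (0.321 to 1.64), on 6, 7 and 7 footprints, so their intervals overlapped that of MYCN. MGA lay nearer to the middle, at 0.13 (0.099 to 0.167) and 0.402 (0.314 to 0.506). MAX had 0 footprints against 5781 RNA counts at 6 h, where its interval ends at 0.0577, and 3 against 2728 at 72 h, which gives 0.203 (0.0419 to 0.594). The scale differs between the times, so the 2 sets of ratios are not compared. They are a placing among genes within these libraries, with no test.

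Neither gene's footprints passed the test for a difference with actD. At 6 h MYCN footprints were 46.9, 32.5 and 26.2 CPM with DMSO (46, 25 and 10 counts) and 35.1, 47.7 and 51.7 CPM with actD (17, 18 and 23 counts), a log2 difference of 0.33 (SE 0.38). At 72 h they were 95, 117 and 99.5 CPM with DMSO and 83.6, 73.4 and 113 CPM with actD, a difference of -0.20 (SE 0.34). At 2 weeks they were 27.9, 36.0 and 27.2 CPM with DMSO and 35.3, 38.8 and 32.1 CPM with actD, a difference of 0.21 (SE 0.29). The groups overlapped at each time, with DMSO replicate 3 at 72 h resting on 8 counts.

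MGA footprints were lower on average with actD at all 3 times, and no difference passed the test. At 6 h they were 24.5, 28.6 and 36.7 CPM with DMSO (24, 22 and 14 counts) and 12.4, 21.2 and 18 CPM with actD (6, 8 and 8 counts). At 72 h they were 86.0, 97.2 and 62.2 CPM with DMSO and 61.2, 59.8 and 60.7 CPM with actD. At 2 weeks they were 83.6, 64.8 and 31.7 CPM with DMSO and 34.2, 34.2 and 39.4 CPM with actD. The groups did not overlap at 6 h, which held for 9.41% of all genes, or at 72 h, which held for 35.7%, and they overlapped at 2 weeks through DMSO replicate 3. The log2 differences were -0.78 (SE 0.38), -0.47 (SE 0.32) and -0.74 (SE 0.40), with edgeR adjusted p-values of 0.889, 0.353 and 0.587. Without 6 h DMSO replicate 1, the library that stood apart, the 6 h difference was -1.12 (SE 0.66).

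Of the 2 members tested in footprints 0 were called at each time by edgeR, beside 0 of 1212 genes at 6 h (0.0%), 92 of 2426 at 72 h (3.79%) and 0 of 1598 at 2 weeks (0.0%). None had an unadjusted p under 0.05, which 3.14%, 27.3% and 8.57% of all genes had. Translational efficiency, the footprint change relative to the RNA change, was tested at 6 h and 72 h with 0 members called, beside 0 of 951 genes (0.0%) and 10 of 2311 (0.433%). MYCN had interactions of 0.36 (SE 0.26) and 0.08 (SE 0.36) on the log2 scale, and MGA of -0.51 (SE 0.39) and -0.55 (SE 0.35). At 2 weeks this test was not made because the RNA labels contradict each other.

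**Figure D4:**
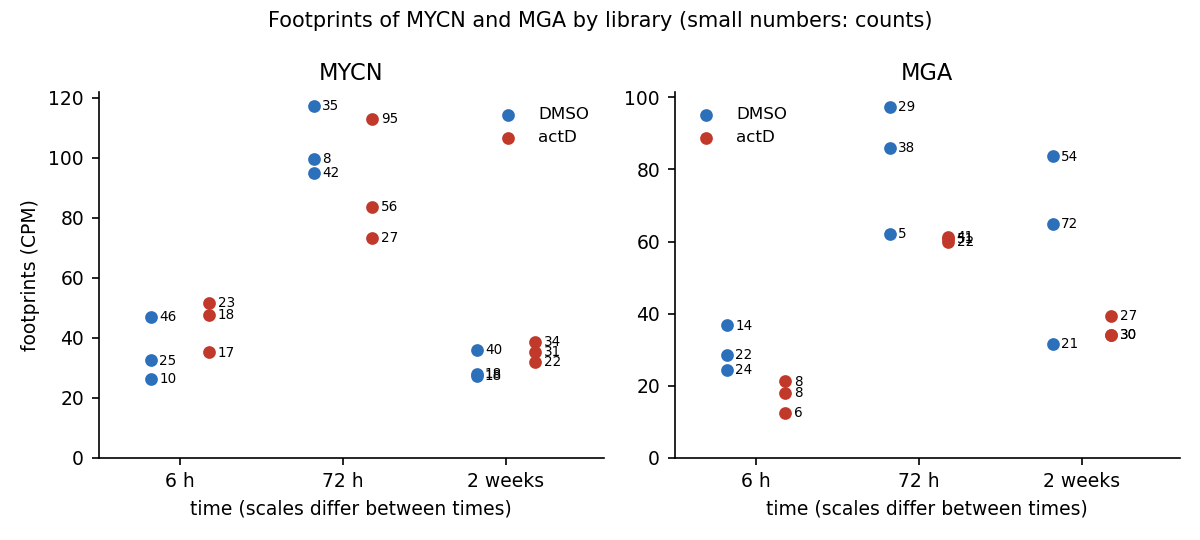
Footprint level of MYCN and MGA in each library, in CPM, with DMSO and actD side by side at each time and the raw count beside each point; the scale differs between times. MGA is lower with actD without overlap at 6 h and 72 h, where every actD library at 6 h has 6 to 8 counts, and MYCN overlaps at every time.

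The genes that the network acts on were examined as lists, together with genes of proteins that work with it. By edgeR with each table alone, 0 of 125 list genes were called in RNA at any time. DESeq2 called 5 at 6 h, 9 at 72 h and 2 in the 2-week libraries, beside 0.9%, 2.85% and 0.932% of all genes. With 1 edgeR fit over all 18 RNA libraries 0, 13 and 0 were called, beside 0.00403%, 4.89% and 0.0%. The 57 genes known to be activated by MYC, mostly nucleolar and metabolic genes, lay mainly below 0. With actD 47 of 57 had a lower RNA level at 6 h, 48 at 72 h and 41 in the 2-week libraries named actd, beside 47.0%, 48.6% and 53.2% of all genes tested. The list medians were -0.14, -0.28 and -0.09 on the log2 scale, and those of all genes 0.02, 0.02 and -0.02. By edgeR at an unadjusted p under 0.05, 10 were lower and 0 higher at 6 h, 11 lower and 1 higher at 72 h, and 10 lower and 0 higher at 2 weeks. Of all genes, 4.54% were lower and 3.67% higher at that p at 6 h, 7.78% and 5.27% at 72 h, and 4.93% and 4.0% at 2 weeks. These counts describe the list; its genes were not tested as a set.

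HK2, the hexokinase that starts glycolysis in many tumors, was 22.8, 25.1 and 12.9 CPM with DMSO and 6.42, 8.08 and 6.21 CPM with actD at 72 h. The groups did not overlap, and 2193 of all 21195 genes were lower without overlap at that time. The log2 difference of HK2 was -1.55 (SE 0.30, edgeR adjusted p = 0.199). It was -0.55 (SE 0.15) at 6 h and -0.59 (SE 0.21) at 2 weeks. HSPD1, a mitochondrial chaperonin, was 551, 585 and 438 CPM with DMSO and 206, 241 and 232 CPM with actD at 72 h, a difference of -1.21 (SE 0.21, edgeR adjusted p = 0.19). IPO4, an importin, went the other way, with 4.06, 5.15 and 5.27 CPM with DMSO and 15.9, 17.9 and 12.5 CPM with actD, a difference of 1.68 (SE 0.24, edgeR adjusted p = 0.174). DESeq2 put all 3 past the threshold at 72 h, with adjusted p-values of 5.07e-04, 3.3e-05 and 6.02e-07.

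In the 72 h footprints 2 of the 27 activated targets tested were called by edgeR, 1 in each direction, beside 3.79% of all genes. TCOF1, which makes the nucleolar protein treacle needed for transcription of ribosomal RNA, fell from 127, 174 and 124 CPM with DMSO (56, 52 and 10 counts) to 44.8, 46.2 and 44.0 CPM with actD (30, 17 and 37 counts). The log2 fold change was -1.66 (SE 0.33, adjusted p = 0.0473). Its RNA at 72 h was 156, 220 and 97.4 CPM with DMSO and 76.8, 92.3 and 86.0 CPM with actD, a difference of -0.89 (SE 0.30, edgeR adjusted p = 0.308, and 0.0227 with 1 fit over all 18 libraries). NDUFAF4, an assembly factor of mitochondrial complex I, had 0 footprints with DMSO in all 3 libraries and 21, 13 and 36 with actD, which is at least 2.02-fold higher over a floor of 3 counts per library (edgeR adjusted p = 0.0454). NDUFAF4 passed the filter on low counts through its actD libraries alone, so its call is not independent of that filter. Its RNA overlapped, at 32.4, 29.3 and 39.0 CPM against 30.3, 28.2 and 64.0 CPM. Both calls rest on few counts and ended under most alternatives: 5 of 13 kept the call for TCOF1 and 5 of 12 for NDUFAF4. For TCOF1 the edgeR adjusted p reached 0.224 without DMSO replicate 1, and 0.311 over all alternatives. For NDUFAF4 it reached 0.188.

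Genes that MYC proteins are known to repress were mostly higher at 6 h and 2 weeks. At 72 h the share that was higher was near that of all genes. Of 10, 8 were higher at 6 h, 6 at 72 h and 8 at 2 weeks, beside 53.0%, 51.4% and 46.8% of all genes. Medians were 0.22, 0.13 and 0.21 on the log2 scale. The 72 h median ran from -0.0049 to 0.22 when each library was left out in turn. These genes were not tested as a set. CDKN2B, an inhibitor of the cyclin D kinases, was 5.87, 6.71 and 5.49 CPM with DMSO and 9.38, 8.62 and 8.42 CPM with actD at 6 h. These groups did not overlap (log2 difference 0.55, SE 0.14, edgeR adjusted p = 0.438), and 1737 of 22669 genes were higher without overlap. At 72 h its log2 difference was 2.50, and 0.57 to 2.99 when each library was left out in turn, so its size rested largely on a single library. It was not called at 72 h in the main fit, nor in 11 of 12 alternatives. Only 1 edgeR fit over all 18 libraries called it (adjusted p = 0.0477). At 2 weeks its difference was 0.93. CDKN1A, which makes the cell cycle inhibitor p21, was 1.47, 1.31 and 1.01 CPM with DMSO and 2.20, 2.00 and 1.91 CPM with actD at 72 h (0.69, SE 0.28, edgeR adjusted p = 0.361). NDRG1, a gene named for its repression by MYCN, went the other way at 72 h, at -0.87 (SE 0.50).

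TXNIP and ARRDC4, arrestin-like genes driven by MondoA and its partner MLX, were higher with actD at 6 h and 72 h with no overlap between groups. The same held for 1737 of all 22669 genes at 6 h and for 2233 of 21195 at 72 h. TXNIP was 105, 122 and 114 CPM with DMSO and 182, 217 and 218 CPM with actD at 6 h, a log2 difference of 0.86 (SE 0.12, edgeR adjusted p = 0.111). At 72 h it was 195, 159 and 148 CPM with DMSO and 314, 310.3 and 1137 CPM with actD (1.81, SE 0.52, edgeR adjusted p = 0.276), actD replicate 3 being far above the rest. Without that library the difference was 0.89 (SE 0.20, edgeR adjusted p = 0.192). ARRDC4 was 28.7, 29 and 28.8 CPM with DMSO and 46.7, 51.9 and 57.7 CPM with actD at 6 h (0.85, SE 0.11, edgeR adjusted p = 0.0982). At 72 h it was 19.8, 17.6 and 26.1 CPM with DMSO and 48.8, 49.8 and 142.2 CPM with actD, a difference of 1.92 (SE 0.45, edgeR adjusted p = 0.244), or 1.22 without actD replicate 3 (SE 0.22, adjusted p = 0.151). At 2 weeks both genes had negative differences between libraries named actd and dmso, -0.55 (SE 0.28) and -0.11 (SE 0.13). DESeq2 put both past the threshold at 6 h, with adjusted p-values of 6.37e-06 for TXNIP and 7.92e-06 for ARRDC4, and at 72 h, with 0.0239 and 0.0041.

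Genes of proteins that work with the network were mostly lower at 72 h in 3 of 5 lists. Of all genes tested, 48.6% were lower at that time. Of the 14 genes of the SIN3 corepressor, which the MXD proteins and MNT recruit, 12 were lower at 72 h, with a median of -0.11. At 6 h 5 of them were lower and 9 higher (median 0.08), and at 2 weeks 6 lower and 8 higher (median 0.02). RBBP7, a histone-binding subunit, was 184, 203 and 153 CPM with DMSO and 85.6, 124 and 97.9 CPM with actD (log2 difference -0.81, SE 0.22, edgeR adjusted p = 0.265), and past the threshold by DESeq2 (adjusted p = 0.0438). The deacetylase HDAC1 was 173, 156 and 141 CPM with DMSO and 108.6, 117 and 115 CPM with actD (-0.47, SE 0.18, edgeR adjusted p = 0.34). With 1 edgeR fit over all 18 libraries RBBP7 and HDAC1 were called, with adjusted p-values of 0.0216 and 0.0466. ING2 was at 0.45 (SE 0.25). At 6 h RBBP7 was at 0.10 (SE 0.15) and HDAC1 at -0.04 (SE 0.11).

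Of 16 MYC cofactors 12 were lower at 72 h, with a median of -0.17. Lower counts were not particular to 72 h. At 6 h and in the 2-week libraries named actd 11 were lower (medians -0.07 and -0.04), beside 47.0% and 53.2% of all genes. SMARCB1, the chromatin remodelling subunit that binds MYC, was 35.8, 30.2 and 32.7 CPM with DMSO and 23.4, 26 and 24 CPM with actD (log2 difference -0.43, SE 0.18, edgeR adjusted p = 0.373). PAF1 and RUVBL1 were at -0.55 (SE 0.30) and -0.47 (SE 0.26). Of 12 genes of MYC protein turnover 9 were lower at 72 h (median -0.15). Among them were AURKA, a kinase that shields MYCN protein from breakdown, at -0.61 (SE 0.30), GSK3B at -0.38 (SE 0.24) and USP28 at -0.29 (SE 0.18). Of the same 12 genes 9 were lower at 6 h (median -0.10) and 8 in the 2-week libraries named actd (median -0.06). The 10 partners of MGA in PRC1.6 split evenly, 5 higher and 5 lower (median 0.00), with YAF2 at 0.75 (SE 0.40), RING1 at -0.43 (SE 0.23) and RYBP at 0.27 (SE 0.19). The 6 genes of the extended network split 3 and 3 (median 0.03), with MLX at 0.41 (SE 0.20), TFAP4 at -0.44 (SE 0.24) and USF2 at 0.44 (SE 0.29).

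**Figure D5:**
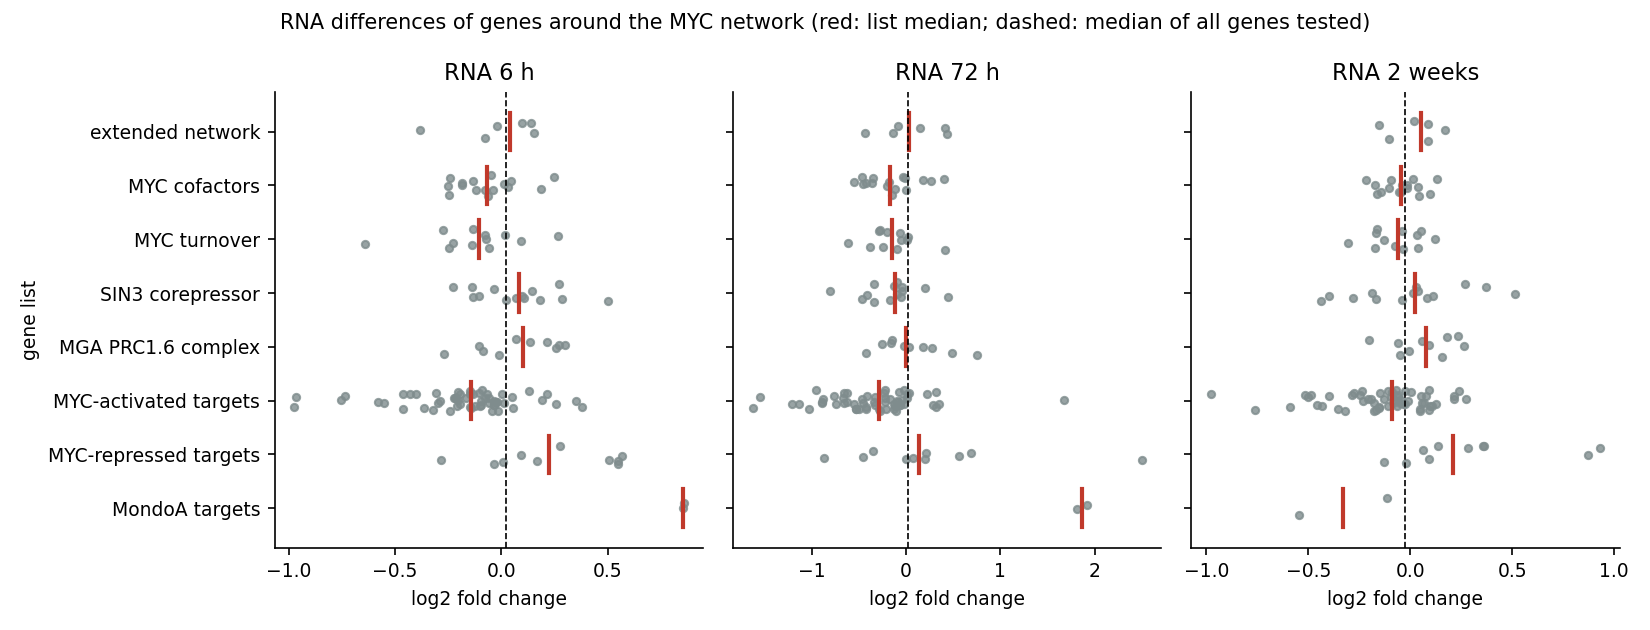
Log2 RNA difference of every gene of the 8 lists around the MYC network at 6 h, 72 h and 2 weeks, with red bars for list medians and a dashed line for the median of all genes tested. The activated targets sit mostly left of the dashed line in each panel (medians -0.14, -0.28 and -0.09), and the MondoA targets sit far right at 6 h and 72 h and left of it at 2 weeks.

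The genes whose RNA pattern was most like that of MYCN over the 18 RNA libraries, after centring each table on its own mean, were WDR12 (Pearson r = 0.944), IPO11 (0.922) and NUP88 (0.921), among 10548 genes at 5 CPM or more in each table. For MAX they were ABT1 (0.944), C19orf53 (0.932) and SNAPIN (0.930). MYC and MYCL were under that level. These correlations describe libraries that share a table and its scaling, and the genes were picked as the highest of all.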

How the data were processed

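Total RNA and ribosome footprints of WiT49 cells were deposited by the authors as 6 tables of estimated counts per gene, 1 per assay and time, with no pooling. HISAT2, StringTie and hg38 are named, without versions or roles, per the submitters' processing notes; strand use and the handling of multiply mapped reads are not given in the sources used here. The deposited values were already whole, and no value column was left unused (0). Small values cluster at a few numbers in RNA at 6 h and 2 weeks, so 1 fragment was worth more than 1 count and no floor is given there. Of the identifiers, 99.34% (RNA) and 99.28% (footprints) matched GENCODE release 29 without version.

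Each table was tested alone with edgeR 4.0.16 (R 4.3.3; quasi-likelihood, two-sided, TMM, filterByExpr, Benjamini-Hochberg over all genes; called at adjusted p under 0.05). Translational efficiency and time were interaction terms. Alternatives were DESeq2 1.42.0, other scalings and filters, a replicate block, 1 fit over 18 libraries and leaving out each library. On simulated data made from the 72 h RNA table (21195 genes), the test recovered 5 of 100 genes changed 2-fold and 67 of 100 changed 4-fold at the trended spread. With 3 libraries against 3 an exact permutation test cannot go below 0.1. Named genes were all 10 members and, of each list, the genes called (at most 4) or else the 3 with the smallest p in RNA at 72 h; for the activated targets both kinds are named. The members, lists and tests were chosen with earlier results of these data known, and the list genes are from general knowledge.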

Additional observations from a re-analysis of the deposited data

How the results depend on the processing

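No member was called in the main edgeR fits, and the count changed in RNA at 72 h only, from 0 to 1 (MXD1) with DESeq2 and to 1 with 1 fit over all 18 libraries; over all genes these fits called 605 of 21195 and 1212 of 24803, against 1 of 21195. Leaving out each library in turn gave 0 members called in every comparison (lowest 0, highest 0). Of 49 member-by-comparison log2 fold changes, 29 kept their sign under every alternative and 20 did not. None of the reversed differences passed a test (the largest was 0.36, MYCN translational efficiency at 6 h), and the cause was not tested. With library totals as the only scaling, values became -0.027 for MXI1 at 72 h, -0.0039 for MAX and -0.13 for MXD4 at 2 weeks, and, for MYCN at 6 h, -0.48 in footprints and -0.44 in translational efficiency; this scaling moved the median of all genes to -0.18 in 2-week RNA and -0.61 in 6 h footprints. With no filter MXI1 at 72 h was -0.0082. MXD3 at 6 h was -0.0050 with 1 fit over all 18 libraries. MXD1 at 2 weeks turned positive with DESeq2 (0.0107), RLE factors (0.0108), no filter (0.0020) and 1 fit over all 18 libraries (0.0209).

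Leave-one-out ranges that crossed 0 were, for RNA at 6 h, MYC -0.39 to 0.17, MYCN -0.117 to 0.0533, MYCL -0.14 to 0.0808, MAX -0.0198 to 0.205, MXI1 -0.0049 to 0.39 and MXD3 -0.11 to 0.10. At 72 h they were MYCL -0.30 to 0.17, MXI1 -0.44 to 1.31, MXD3 -0.19 to 0.82 and MGA -0.18 to 0.0057. At 2 weeks they were MYCL -0.253 to 0.0606, MXD1 -0.11 to 0.15 and MXD4 -0.0629 to 0.122. For translational efficiency at 72 h MYCN gave -0.0637 to 0.319, and for RNA at 72 h against 6 h MYCL gave -0.27 to 0.19, MXI1 -0.64 to 1.09 and MXD3 -0.18 to 0.83. Of 37 list gene results 2 reversed, NDUFAF4 RNA at 72 h (leave-one-out -0.20 to 0.49, lowest without actD replicate 3) and ARRDC4 at 2 weeks (-0.21 to 0.0102, highest without named dmso replicate 3).

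With the replicate number as a block, 0 members were called and MXI1 in RNA at 72 h against 6 h became 0.24. TCOF1 and NDUFAF4 footprints at 72 h lost their call (adjusted p = 0.142 each). Over all genes the block took the 72 h footprint calls from 92 to 0. They also fell to 0 without DMSO replicate 1 or 2 and without actD replicate 1 or 2, and to 7 with library totals. Without DMSO replicate 3 there were 55 calls, and without actD replicate 3 there were 282. Deviations of same-numbered actD and DMSO libraries did not correlate over 0.1 in all 3 pairs at any time or assay. Between RNA and footprints at 72 h they did in the 3 actD pairs (0.173, 0.177 and 0.408) but not in the 3 DMSO pairs (0.14, 0.0529 and 0.136), so the numbers are not taken to pair samples. In footprints the filter on low counts left 2 members tested; 3 were tested at 72 h without DMSO replicate 3 or without actD replicate 2, and 0 were called.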
